A study of Mus musculus with 37 samples.

Results

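Microglia are the resident macrophages of the brain, and the 31 genes described here are used as markers of these cells or encode parts of the complement system that microglia make. The list was given by name, with earlier results of these data known, and each gene was read from its brightest probe set, the set of short array probes that reports on 1 transcript. Of the 31 genes, 29 were measured, out of 18193 genes on the array. C3 had no probe set with that single gene symbol in the annotation used here, C4b shared its only probe set with C4a, and neither is given a value.

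Cortex RNA came from 37 mice of both sexes at 9 wk of age, 1 array per mouse, on a CBA x C57Bl/6 background. R6/2 mice (n = 9) were hemizygous for a transgene that expresses exon 1 of mutant human huntingtin, a widely used model of Huntington's disease. Hdac4HET mice (n = 9), labelled HDAC4het, carried 1 null allele of the histone deacetylase gene Hdac4, made in mice of another strain and present in every cell. Dble::R6/2 mice (n = 10), labelled R6/2::HDAC4het, carried both, and WT mice (n = 9) carried neither. Because the transgene encodes only the N-terminal end of huntingtin and the cortex was homogenised as a whole, the arrays show neither the full-length protein's effect nor which cell holds a transcript. Values are log2 expression levels, so a difference of 1 is a doubling, and in such bulk tissue fewer microglia and less RNA per microglial cell cannot be told apart.

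In the healthy cortex microglia survey the tissue through a set of surface receptors. Neurons restrain them through the fractalkine ligand Cx3cl1, which binds Cx3cr1, and through Cd200 and Cd47, while Csf1 and Il34 keep them alive through Csf1r. The complement protein C1q, built from the chains C1qa, C1qb and C1qc, tags synapses and debris for removal. The complement receptor CR3, of which Itgam is a subunit, takes part in that removal. Reactive microglia are usually described as losing the surveying receptors and gaining lysosomal and antigen-presenting genes.

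Array medians lay between 6.16 and 6.21, and arrays of 1 genotype correlated at 0.993 to 0.998. Hdac4 itself was at most 8.02 in the mice with the null allele and at least 8.28 in those without it, as labelled on each array. On 6 arrays the sex-linked genes did not match the sex in the label (WT 9, Hdac4HET 1, 5 and 9, Dble::R6/2 1 and 9). Of these, Hdac4HET 5 and 9 showed both signals, with Xist, a gene of female cells, at 11.21 and 11.67. Their mean over Y-linked genes was 6.56 and 5.89. For Xist and the Y-linked mean, WT 1, labelled female, had 12.33 and 3.46, and WT 2, labelled male, had 5.41 and 7.49. The reason for the double signal was not tested. Olfactory bulb markers lay above every WT array on 8 arrays, of which 7 were Hdac4HET. The defining markers of cortical neurons were well expressed, with a mean over 7 of them of 11.38 ± 0.08 in WT cortex (SD, n = 9).

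The transcription factor PU.1, the product of Spi1, is the main regulator of myeloid genes and binds DNA through a core that reads GAGGAAG. Promoters from 250 bases before to 50 bases after a start site were given for 20 of the 29 measured genes. The core, searched on both strands, stood in the promoters of 8 of these 20 genes (P2ry13, Fcrls, Trem2, Fcgr3, C1qc, Ctss, Laptm5 and Itgam), against 15.4% of the 27025 genes with a promoter sequence. It is a description of letters and not of binding. The sequences below, from RefSeq on GRCm38.p6 and written 5′ to 3′ on the strand of the gene, show 2 genes that fell in R6/2 cortex (Itgam, C1qc) and 2 that rose (Ctss, Fcgr3), each with the core or its reverse complement in capitals.
Itgam, chr7:128062390-128062689, plus strand: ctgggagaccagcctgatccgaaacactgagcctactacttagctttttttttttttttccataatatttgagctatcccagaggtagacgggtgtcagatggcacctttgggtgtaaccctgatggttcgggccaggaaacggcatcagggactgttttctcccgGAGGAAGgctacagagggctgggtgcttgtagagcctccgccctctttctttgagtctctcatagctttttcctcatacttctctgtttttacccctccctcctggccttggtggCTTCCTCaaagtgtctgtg
C1qc, chr4:136892865-136893164, minus strand: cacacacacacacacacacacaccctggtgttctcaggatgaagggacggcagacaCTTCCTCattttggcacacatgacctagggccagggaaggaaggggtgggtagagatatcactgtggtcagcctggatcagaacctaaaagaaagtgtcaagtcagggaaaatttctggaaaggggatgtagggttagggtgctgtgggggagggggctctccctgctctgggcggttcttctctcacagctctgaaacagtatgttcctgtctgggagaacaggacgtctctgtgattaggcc
Ctss, chr3:95526536-95526835, plus strand: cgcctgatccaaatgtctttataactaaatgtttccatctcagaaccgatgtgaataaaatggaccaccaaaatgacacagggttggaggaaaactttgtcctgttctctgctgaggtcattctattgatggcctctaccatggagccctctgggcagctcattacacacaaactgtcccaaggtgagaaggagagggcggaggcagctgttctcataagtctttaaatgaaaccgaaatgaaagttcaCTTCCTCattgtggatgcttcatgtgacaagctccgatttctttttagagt
Fcgr3, chr1:171059354-171059653, minus strand: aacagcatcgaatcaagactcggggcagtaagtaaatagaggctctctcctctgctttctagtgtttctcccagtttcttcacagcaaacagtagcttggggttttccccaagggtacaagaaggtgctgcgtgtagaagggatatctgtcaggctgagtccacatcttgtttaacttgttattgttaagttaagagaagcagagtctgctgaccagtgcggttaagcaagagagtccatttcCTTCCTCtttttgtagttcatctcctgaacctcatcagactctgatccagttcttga
The matches start at -84 and at 32 from the start site in Itgam, at -194 in C1qc, at -1 in Ctss and at -7 in Fcgr3, where negative positions lie before the start. Genes that carried the core thus moved in both directions. Spi1 was -0.06 ± 0.06 (SE) in R6/2 against WT (limma, adjusted p = 0.483) and -0.04 ± 0.06 in Dble::R6/2 against Hdac4HET (adjusted p = 0.627).

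The comparison of R6/2 with WT cortex asks what the mutant transgene does to these genes. Of the 29 genes, 5 were higher in R6/2 cortex (17.2%) and 6 were lower (20.7%), while over all genes 28.1% were higher and 18.4% were lower. The share that fell was thus near that of all genes and the share that rose was below it. Surveying receptors were among those that fell (Cx3cr1, P2ry12, Csf1r), with the lysosomal protein Cd68, the CR3 subunit Itgam and the C1q chain C1qc. Those that rose were Lyz2, Ptprc, Cd74, Ctss and Fcgr3. Of the 29 genes, 1 in each direction passed 1.3-fold, Lyz2 upward and Cd68 downward. Of all 18193 genes, 683 passed it upward and 600 downward. The median change over the 29 genes was -0.01, against 0 over all genes, and the mean of the 29 genes per array was 7.75 ± 0.06 (SD, n = 9) in WT and 7.74 ± 0.12 (SD, n = 9) in R6/2 cortex. Of the 29 changes 14 were positive and 15 negative, near the split over all genes, of which 50.1% were positive. Genes were called by limma with Benjamini-Hochberg adjustment over all 45037 probe sets, at an adjusted p under 0.05.

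**Figure D1:**
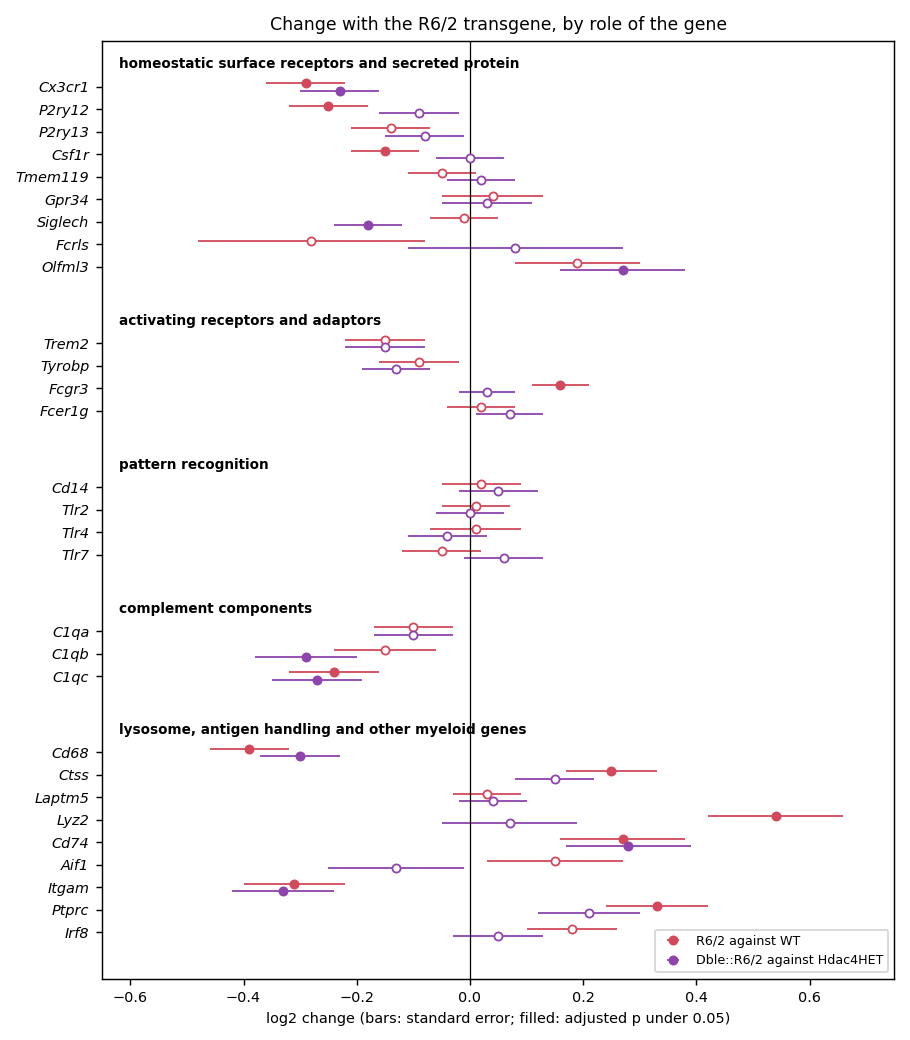
Log2 change (horizontal axis) of each of the 29 genes, grouped by role, in R6/2 against WT (red) and Dble::R6/2 against Hdac4HET (purple), with bars of 1 standard error and filled points where the adjusted p was under 0.05. Lyz2 lies farthest to the right at 0.54 and Cd68 farthest to the left at -0.39, both in R6/2 against WT.

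The counts by role that follow rest on few genes each and stand beside 28.1% higher and 18.4% lower over all genes. The first role holds 9 genes, surveying receptors and the secreted protein Olfml3. Of these 9, 3 fell, none rose and 6 did not pass the test. Cx3cr1 (probe set 1450020_at), the fractalkine receptor, lay between 9.28 and 9.71 in WT cortex (median 9.55) and between 8.99 and 9.45 in R6/2 cortex (median 9.26). The groups overlapped, although the highest R6/2 mouse stood below the WT median. Cx3cr1 fell by 0.29 ± 0.07 on the log2 scale (SE, limma, adjusted p = 0.000885), a change of -18.5%. Its second, dim probe set was -0.22 ± 0.07 (adjusted p = 0.0106). P2ry12 (1431724_a_at), the ADP receptor that draws microglial processes towards injury, ranged from 9.04 to 9.30 in WT (median 9.21) and from 8.72 to 9.19 in R6/2 cortex (median 8.84). Several R6/2 mice were within the WT range and the rest were below it, and the gene fell by 0.25 ± 0.07 (adjusted p = 0.0039). Csf1r (1419872_at), the survival receptor of microglia, went from a median of 11.28 (11.09 to 11.41) in WT to 11.09 (10.91 to 11.29) in R6/2 cortex and fell by 0.15 ± 0.06 (adjusted p = 0.0421). Its other 2 probe sets fell by 0.15 ± 0.05 and 0.14 ± 0.04. The call on the brightest one was lost with the methods' t-test (adjusted p = 0.0747), with array weights, with the replicate block and without the 6 arrays of doubtful sex.

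The other 6 genes of this role did not pass the test, and their difference from the called genes was not tested. Tmem119, which marks microglia apart from blood macrophages, had a median of 8.06 in WT and 8.01 in R6/2 cortex and a change of -0.05 ± 0.06. P2ry13, a further ADP receptor, was -0.14 ± 0.07 (adjusted p = 0.14), the lysophosphatidylserine receptor Gpr34 0.04 ± 0.09 and the sialic acid lectin Siglech -0.01 ± 0.06. Olfml3 was 0.19 ± 0.11 (adjusted p = 0.169). Fcrls, an Fc receptor-like protein of microglia, was -0.28 ± 0.20 (adjusted p = 0.27), with the widest spread between mice of the 29 genes (WT 7.14 to 8.69).

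**Figure D2:**
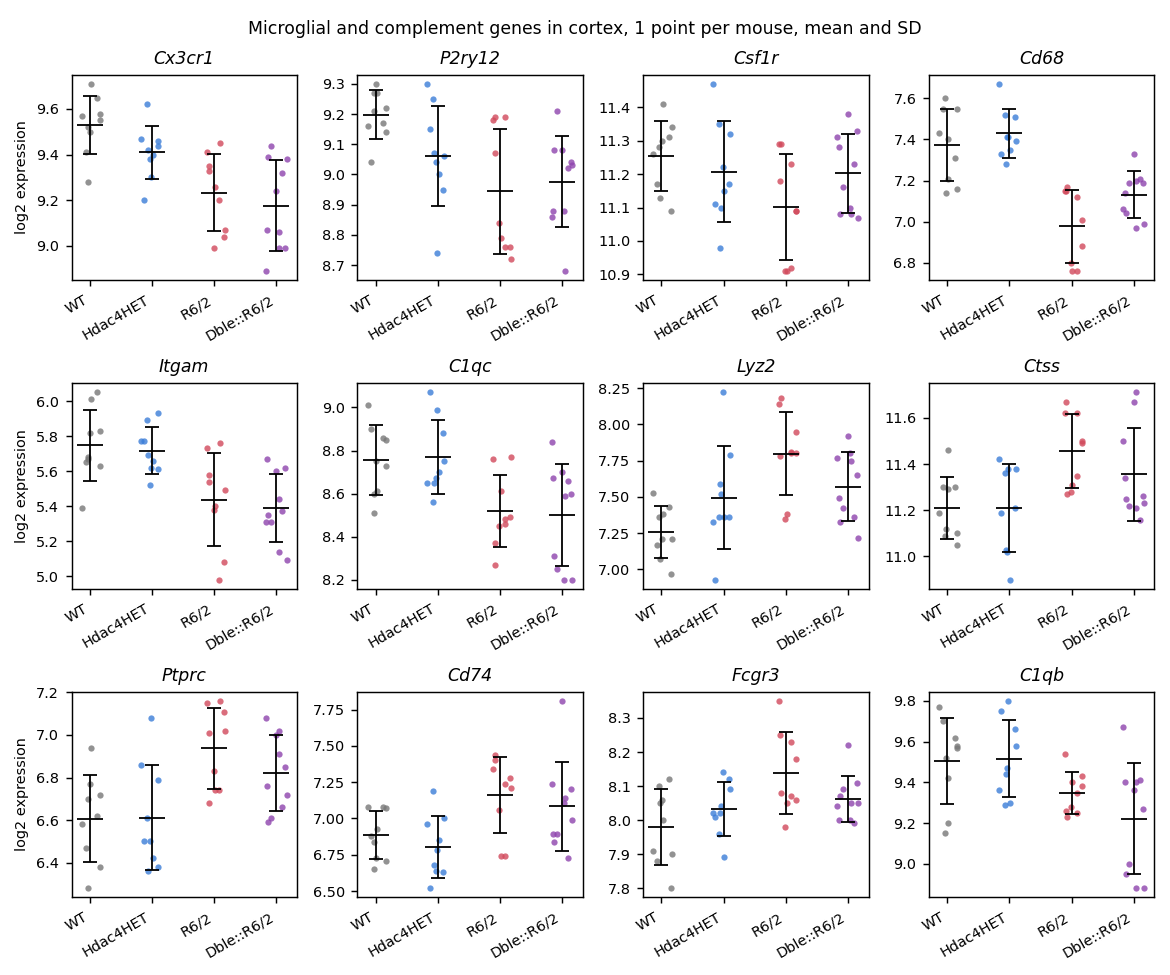
Log2 expression (vertical axis) of 12 of the genes in each mouse of the 4 genotypes, 1 point per mouse, with the mean and SD as bars. Cd68 lies at 7.14 to 7.60 in WT and 6.76 to 7.17 in R6/2 cortex. For C1qb the points of the 10 Dble::R6/2 mice leave a gap between 9.00 and 9.27.

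Of the 4 activating receptors and adaptors, only Fcgr3 passed the test. Fcgr3 (1448620_at), a receptor for immune complexes, had a WT range of 7.80 to 8.12 (median 8.0) and an R6/2 range of 7.98 to 8.35 (median 8.08), and rose by 0.16 ± 0.05 (adjusted p = 0.00546). The ranges overlapped over much of their width. Trem2, the lipid receptor of reactive microglia, was -0.15 ± 0.07 (adjusted p = 0.0763) on its brightest probe set and -0.22 ± 0.07 (adjusted p = 0.0104) on a dimmer one. Its adaptor Tyrobp was -0.09 ± 0.07 (adjusted p = 0.278), and Fcer1g, the adaptor of Fcgr3, was 0.02 ± 0.06.

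The 4 genes of pattern recognition, which sense bacterial and nucleic acid products, did not pass the test. Their changes were 0.02 ± 0.07 for the lipopolysaccharide co-receptor Cd14 (adjusted p = 0.88), 0.01 ± 0.06 for Tlr2, 0.01 ± 0.08 for Tlr4 and -0.05 ± 0.07 for the RNA sensor Tlr7 (adjusted p = 0.607). Tlr4 was dim, and its other probe sets disagreed in sign, at 0.23 ± 0.08 (adjusted p = 0.0146) and -0.19 ± 0.05 (adjusted p = 0.00504) for 2 of 3.

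Among the 3 measured complement components, C1qc (1449401_at) fell. It ranged from 8.51 to 9.01 in WT (median 8.75) and from 8.27 to 8.77 in R6/2 cortex (median 8.48). Most R6/2 mice were below the WT range and 3 were within it, and the change was -0.24 ± 0.08 (adjusted p = 0.0212). C1qb (1417063_at) was -0.15 ± 0.09 (adjusted p = 0.189) and C1qa (1417381_at) -0.10 ± 0.07 (adjusted p = 0.316), the same sign with neither past the test.

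The 9 lysosomal, antigen-handling and other myeloid genes moved both ways, with 4 higher and 2 lower, where 28.1% of all genes were higher and 18.4% lower. Cd68 (1449164_at), a lysosomal membrane glycoprotein often used to stain reactive microglia, was between 7.14 and 7.60 in WT (median 7.40) and between 6.76 and 7.17 in R6/2 cortex (median 7.01). The groups overlapped only between 7.14 and 7.17. Cd68 fell by 0.39 ± 0.07 (adjusted p = 1.38e-05), a change of -23.8%. Itgam (1422046_at), the CD11b chain of CR3, fell by 0.31 ± 0.09 (adjusted p = 0.00764), from a median of 5.68 (5.39 to 6.05) to 5.49 (4.98 to 5.76). Its only probe set was dim, with a mean level of 5.57 where the lowest array median was 6.16. The filter on dim probe sets therefore left Itgam out of both transgene comparisons.

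Lyz2 (1423547_at), the lysozyme of macrophages and neutrophils, was the largest riser. It ranged from 6.97 to 7.53 in WT (median 7.21) and from 7.35 to 8.18 in R6/2 cortex (median 7.80), and rose by 0.54 ± 0.12 (adjusted p = 0.000396), a change of 45.5%. Only the 2 lowest R6/2 mice lay within the WT range. Lyz1 is a near-identical copy whose probe set followed Lyz2 at r = 0.95 over the 37 arrays, so signal may be shared between the 2 genes. Ptprc (1422124_a_at), the CD45 phosphatase of all white blood cells, rose by 0.33 ± 0.09 (adjusted p = 0.00468), from a median of 6.62 (6.28 to 6.94) to 7.01 (6.68 to 7.16). Its second, dim probe set was -0.12 ± 0.06 (adjusted p = 0.123), and the mean of both was 0.10 ± 0.05 (adjusted p = 0.0894).

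Ctss (1448591_at), the protease cathepsin S, rose by 0.25 ± 0.08 (adjusted p = 0.01), from a median of 11.19 (11.05 to 11.46) to 11.49 (11.27 to 11.67). Cd74 (1425519_a_at), the invariant chain of MHC class II, rose by 0.27 ± 0.11 (adjusted p = 0.044), from a median of 6.88 (6.65 to 7.08) to 7.24 (6.74 to 7.44). The Cd74 call was lost with quantile normalization (adjusted p = 0.075), the methods' t-test, the replicate block and without the arrays of doubtful sex (adjusted p = 0.0612). Irf8 was 0.18 ± 0.08 (adjusted p = 0.0887), Aif1, the source of the Iba1 stain, 0.15 ± 0.12 (adjusted p = 0.352), and Laptm5, a lysosomal membrane protein, 0.03 ± 0.06 (adjusted p = 0.689). Another Laptm5 probe set (1417721_s_at) fell by 0.26 ± 0.06 (adjusted p = 0.000538).

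The comparison of Dble::R6/2 with Hdac4HET cortex tests the transgene in mice that all lack 1 Hdac4 allele, on other arrays than the comparison above. Both comparisons come from the same fit, so they share its estimate of the spread. Here 2 of the 29 genes were higher (6.9%, against 28.4% of all genes) and 6 were lower (20.7%, against 14.1%). None of the 29 passed 1.3-fold, while of all 18193 genes 473 passed it upward and 743 downward. The median change was 0, against 0.04 over all genes. Of the 11 genes called in R6/2 against WT, 5 were called here in the same direction, which is 45.5% of those 11 and 62.5% of the 8 called here. Over all genes the like shares were 68% and 74.4%. The 5 were Cx3cr1, C1qc, Cd68 and Itgam, lower in both, and Cd74, higher in both, and no gene was called in opposite directions.

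Cd68 ranged from 7.28 to 7.67 in Hdac4HET cortex (median 7.41) and from 6.97 to 7.33 in Dble::R6/2 cortex (median 7.16), so the groups again barely overlapped, and fell by 0.30 ± 0.07 (adjusted p = 0.000403). Itgam fell by 0.33 ± 0.09 (adjusted p = 0.00386), with medians of 5.69 (5.52 to 5.93) and 5.36 (5.09 to 5.67). Cx3cr1 fell by 0.23 ± 0.07 (adjusted p = 0.00619), with medians of 9.42 (9.20 to 9.62) and 9.15 (8.89 to 9.44). Its second, dim probe set was -0.09 ± 0.07 (adjusted p = 0.313). Siglech fell by 0.18 ± 0.06 (adjusted p = 0.0237), and its Hdac4HET level (median 7.65, 7.54 to 7.80) was the highest of the 4 genotypes by median. The Siglech call was lost with the replicate block (adjusted p = 0.0539), without the arrays of doubtful sex (adjusted p = 0.112) and without those with bulb markers (adjusted p = 0.569).

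C1qb ranged from 9.29 to 9.80 in Hdac4HET cortex (median 9.47) and from 8.88 to 9.67 in Dble::R6/2 cortex (median 9.31), and fell by 0.29 ± 0.09 (adjusted p = 0.0082). C1qc ranged from 8.56 to 9.07 (median 8.70) and from 8.20 to 8.84 (median 8.60), and fell by 0.27 ± 0.08 (adjusted p = 0.00912). For both genes a gap lay among the Dble::R6/2 mice, noticed once the values were seen. For C1qb 4 mice were at 9.00 or less and the other 6 at 9.27 or more. The same 4 mice had C1qc at 8.31 or less against 8.59 or more. C1qb and C1qc followed each other at r = 0.98 in this genotype, so C1qc is no separate evidence for the gap. The other 2 C1qb probe sets were each -0.21 (adjusted p = 0.0539 and 0.125). C1qa was -0.10 ± 0.07 (adjusted p = 0.297).

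Cd74 rose by 0.28 ± 0.11 (adjusted p = 0.0371) and Olfml3 by 0.27 ± 0.11 (adjusted p = 0.0429). Both calls were lost without the arrays of doubtful sex (adjusted p = 0.0665 and 0.193), without those with bulb markers (0.0668 and 0.574) and without Dble::R6/2 replicate 4, at 0.20 ± 0.09 (adjusted p = 0.102) and 0.24 ± 0.11 (adjusted p = 0.0849). Lyz2, the largest riser above, was 0.07 ± 0.12 here (adjusted p = 0.68), with medians of 7.36 (6.93 to 8.22) and 7.57 (7.22 to 7.92). Ptprc was 0.21 ± 0.09 (adjusted p = 0.0663), Ctss 0.15 ± 0.07 (adjusted p = 0.133), Fcgr3 0.03 ± 0.05, P2ry12 -0.09 ± 0.07 (adjusted p = 0.371) and Csf1r 0.00 ± 0.06. The 2 of lowest p among the activating receptors were Trem2 (-0.15 ± 0.07, adjusted p = 0.0662) and Tyrobp (-0.13 ± 0.06, adjusted p = 0.108), and among pattern recognition genes Tlr7 (0.06 ± 0.07, adjusted p = 0.501) and Cd14 (0.05 ± 0.07, adjusted p = 0.585).

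The mean of 8 olfactory bulb markers was 6.66 ± 1.36 (SD, n = 9) in Hdac4HET cortex and 5.18 ± 0.38 (SD, n = 10) in Dble::R6/2 cortex, and 8 of 8 of these markers were lower in Dble::R6/2. Without the 8 arrays with raised markers, which leaves 2 Hdac4HET arrays, C1qb (-0.53 ± 0.14, adjusted p = 0.00708) and C1qc (-0.51 ± 0.13, adjusted p = 0.00658) remained called. Those 2 Hdac4HET mice had C1qb at 9.66 and 9.75 (genotype median 9.47) and C1qc at 8.88 and 9.07 (median 8.70). Dble::R6/2 replicate 10, the highest of its genotype for C1qb (9.67) and C1qc (8.84), was among the arrays left out. The sizes of these 2 falls thus depend on which mice remained. Cx3cr1 was then -0.11 ± 0.12 (adjusted p = 0.623), Cd68 -0.28 ± 0.12 (adjusted p = 0.118) and Itgam -0.29 ± 0.17 (adjusted p = 0.272), so none of these 3 passed. The part of bulb tissue in the 8 calls was not tested beyond these values. None of the 8 arrays is WT or R6/2, so they enter R6/2 against WT only through the spread that the fit shares.

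The question of whether lower Hdac4 changes these genes was addressed by 3 further contrasts, and limma called none of the 29 genes in any of them. In Hdac4HET against WT, where 1.33% of all genes were higher and 0.511% lower, 1 gene had an unadjusted p under 0.05 (Siglech, 0.14 ± 0.06, adjusted p = 0.251), and the methods' t-test gave 0 calls and 2 genes unadjusted. In Dble::R6/2 against R6/2, where 1.53% of all genes were higher and 0.429% lower, Aif1 (-0.30 ± 0.12, adjusted p = 0.172) and Cd68 (0.15 ± 0.07, adjusted p = 0.229) were under 0.05 unadjusted, and the methods' t-test again gave 0 calls and 2 genes. In the interaction, which asks if the change with the transgene depends on the null allele (0.55% of all genes higher, 0.495% lower), Lyz2 (-0.47 ± 0.17, adjusted p = 0.127) and Fcgr3 (-0.13 ± 0.06, adjusted p = 0.261) were under 0.05 unadjusted. So the different results for Lyz2, Ptprc, Ctss, P2ry12 and Csf1r in the 2 transgene comparisons were not shown to be differences between them.

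By role, the genes of lowest p beside these were as follows. In Hdac4HET against WT they were P2ry12 (-0.14 ± 0.07, adjusted p = 0.327), Trem2 (0.11 ± 0.07, adjusted p = 0.413), Tyrobp, Cd14, Tlr7, C1qa (-0.03 ± 0.07, adjusted p = 0.871), C1qb, Irf8 and Lyz2 (0.24 ± 0.12, adjusted p = 0.312). Lyz2 thus had an intermediate median in Hdac4HET cortex, 7.36 against 7.21 in WT and 7.80 in R6/2, with no call. In Dble::R6/2 against R6/2 they were Csf1r (0.10 ± 0.06, adjusted p = 0.398), Cx3cr1 (-0.06 ± 0.07), Fcgr3 (-0.08 ± 0.05, adjusted p = 0.38), Trem2 (0.11 ± 0.07, adjusted p = 0.413), Cd14 (0.09 ± 0.07), Tlr7, C1qb (-0.13 ± 0.09, adjusted p = 0.502) and C1qa. In the interaction they were Siglech (-0.17 ± 0.09, adjusted p = 0.307), Csf1r (0.15 ± 0.08, adjusted p = 0.332), Fcer1g, Tlr7, Tlr4, C1qb (-0.14 ± 0.13, adjusted p = 0.57), C1qc and Aif1 (-0.27 ± 0.17, adjusted p = 0.375). Among the other microglial genes listed, the calls in these contrasts were Cd200, Myd88 (0.21 ± 0.05, adjusted p = 0.0401) and Ctsz (0.15 ± 0.03, adjusted p = 0.0182) in Hdac4HET against WT, and Lgmn (0.12 ± 0.03, adjusted p = 0.0449) in Dble::R6/2 against R6/2. Olfactory bulb markers moved beside the Hdac4HET calls, with 7 of 8 higher in Hdac4HET than in WT cortex (median log2 difference 1.5) and means per array on the log2 scale of 5.02 to 8.26 against 4.94 to 5.37, and their part in these calls was not tested.

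A test that calls no gene does not show equal levels, and the intervals give the sizes left. In Dble::R6/2 against R6/2 the 95% interval of the log2 difference was -0.20 to 0.08 for Cx3cr1, 0.02 to 0.29 for Cd68, -0.23 to 0.14 for Itgam and -0.18 to 0.15 for C1qc. For Lyz2 it was -0.47 to 0.01. The 29-gene mean per array was 7.72 ± 0.08 (SD, n = 10) in Dble::R6/2 and 7.75 ± 0.07 (SD, n = 9) in Hdac4HET cortex.

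**Figure D3:**
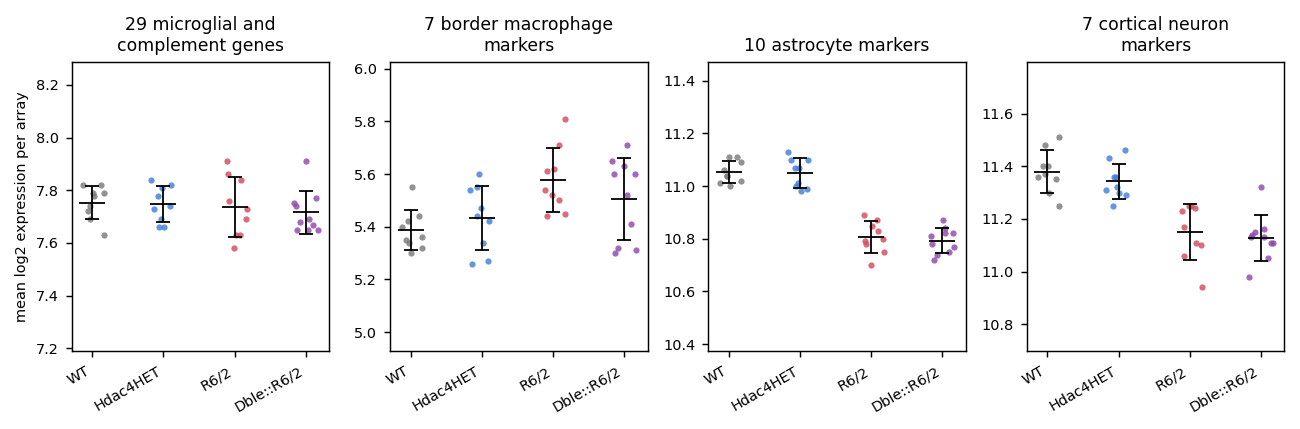
Mean log2 expression per array (vertical axes of equal height) of the 29 microglial and complement genes and of markers of border macrophages, astrocytes and cortical neurons, 1 point per mouse with the mean and SD. The 29-gene means of the 4 genotypes lie at 7.72 to 7.75, while the astrocyte means lie at 11.05 in WT and Hdac4HET and at 10.81 and 10.79 in the 2 genotypes with the transgene.

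Of 23 measured ligands, inhibitory receptors and signalling genes, 2 rose (8.7%, against 28.1% of all genes) and 3 fell (13%, against 18.4%) in R6/2 against WT, and again 2 and 3 in Dble::R6/2 against Hdac4HET, where 28.4% and 14.1% of all genes did. The shares that rose were thus below those of all genes, and the shares that fell were near them. Cx3cl1, the fractalkine ligand, fell by 0.43 ± 0.04 (adjusted p = 1.37e-10) and by 0.37 ± 0.04 (adjusted p = 2.53e-09). Cd200, a neuronal signal that quiets microglia, rose by 0.40 ± 0.06 (adjusted p = 3.4e-06) and 0.67 ± 0.06 (adjusted p = 4.72e-11), and it was lower in Hdac4HET than in WT cortex (-0.31 ± 0.06, adjusted p = 0.0108). Sirpa, the receptor of Cd47, fell by 0.19 ± 0.03 (adjusted p = 1.3e-07) and 0.12 ± 0.03 (adjusted p = 0.000321), while Cd47 itself was 0.05 ± 0.03 (adjusted p = 0.21) and 0.00 ± 0.03. The Csf1r ligands were 0.02 ± 0.04 for Csf1 and 0.00 ± 0.03 for Il34 in R6/2 against WT, and Csf1 rose by 0.09 ± 0.03 (adjusted p = 0.0446) in Dble::R6/2. Myd88, the adaptor of Toll-like receptors, rose by 0.26 ± 0.05 (adjusted p = 0.000112) in R6/2 against WT and was 0.11 ± 0.05 (adjusted p = 0.0958) in Dble::R6/2 against Hdac4HET.

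Beyond C1q, 25 of 29 listed complement genes were measured, with 6 higher and 6 lower in R6/2 against WT (24% each, against 28.1% and 18.4% of all genes, median -0.08). The numbers in Dble::R6/2 against Hdac4HET were 6 higher (24%, against 28.4%) and 3 lower (12%, against 14.1%), with a median of -0.01. These shares lie near those of all genes. Masp1, a protease of the lectin pathway, rose by 0.36 ± 0.06 (adjusted p = 3.62e-06), and the decay-accelerating factor Cd55 by 0.46 ± 0.09 (adjusted p = 3.84e-05). Clusterin (Clu), which blocks the terminal pathway, fell by 0.14 ± 0.02 (adjusted p = 1.13e-05), and properdin (Cfp), which stabilises the alternative pathway's convertase, fell by 0.37 ± 0.07 (adjusted p = 5.66e-05). In Dble::R6/2 against Hdac4HET the lowest p values belonged to the regulator Cr1l (0.34 ± 0.04, adjusted p = 2.36e-08), Cfp (-0.48 ± 0.07, adjusted p = 3.8e-07), the C1 protease C1ra (-0.37 ± 0.11, adjusted p = 0.005) and the C1 inhibitor Serping1 (0.37 ± 0.12, adjusted p = 0.0119). Inhibitors of complement rose in R6/2 cortex for Cr1l, Serping1, Cd55 and Cd59a and fell for Cd46 (-0.26 ± 0.07) and Clu.

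Among 18 further microglial markers, 1 rose (5.56%, against 28.1% of all genes) and 6 fell (33.3%, against 18.4%) in R6/2 against WT (median -0.13). Against Hdac4HET, in Dble::R6/2 cortex 2 rose (11.1%, against 28.4%) and 4 fell (22.2%, against 14.1%), with a median of -0.04. Rgs10, a signalling brake, fell by 0.34 ± 0.04 (adjusted p = 8.19e-08), the inhibitory Fc receptor Fcgr2b by 0.25 ± 0.05 (adjusted p = 3.82e-05), Fcgr1 by 0.25 ± 0.06 (adjusted p = 0.00111) and the engulfment receptor Mertk by 0.26 ± 0.07 (adjusted p = 0.00266). Of 20 genes of activated microglia, 3 rose and 3 fell in R6/2 against WT (15% each, against 28.1% and 18.4% of all genes). In Dble::R6/2 against Hdac4HET 3 rose (15%, against 28.4%) and 2 fell (10%, against 14.1%). The shares that rose were below those of all genes, and the shares that fell were near them. The cathepsins Ctsz (0.38 ± 0.03, adjusted p = 1.04e-11) and Ctsl (0.28 ± 0.03, adjusted p = 7.91e-09) rose, and Apoe (-0.34 ± 0.06, adjusted p = 3.71e-05) and the chemokine Ccl4 (-0.17 ± 0.06, adjusted p = 0.0123) fell. These genes are not particular to microglia, since neurons and astrocytes also express cathepsins and Apoe. Of 5 class II genes, 1 fell in R6/2 against WT (20%, against 18.4% of all genes), H2-DMa (-0.27 ± 0.09, adjusted p = 0.0115). In Dble::R6/2 against Hdac4HET 3 rose (60%, against 28.4%), H2-Aa (0.74 ± 0.21, adjusted p = 0.00376), H2-Ab1 and H2-Eb1. Dble::R6/2 replicate 4 had the highest class II mean of its genotype, at 6.60 (median 6.02). The part of that array and of the arrays with bulb markers in these calls was not tested.

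Lyz2, Ptprc and Cd74 are also genes of macrophages at the brain's borders and of blood cells. Of 7 border macrophage markers, 2 rose (28.6%, against 28.1% of all genes) and none fell in R6/2 against WT, Cd163 by 0.55 ± 0.12 (adjusted p = 0.000372) and Mrc1 by 0.35 ± 0.10 (adjusted p = 0.00484). Their mean per array lay between 5.30 and 5.55 in WT and between 5.44 and 5.81 in R6/2 cortex. In Dble::R6/2 against Hdac4HET 2 rose (28.6%, against 28.4% of all genes), Mrc1 (0.33 ± 0.10, adjusted p = 0.00679) and Pf4 (0.21 ± 0.08, adjusted p = 0.0341). The means were 5.26 to 5.60 in Hdac4HET and 5.30 to 5.71 in Dble::R6/2 cortex. Of 10 blood cell markers, none rose and 1 fell in R6/2 against WT (10%, against 18.4% of all genes), Hba-a1 at -0.16 ± 0.05. In Dble::R6/2 against Hdac4HET 1 rose (10%, against 28.4%) and 4 fell (40%, against 14.1%), among them S100a9 (-0.89 ± 0.29, adjusted p = 0.0133). The blood marker mean per array was 5.95 and 5.65 in Hdac4HET replicates 7 and 5. It was 4.98 to 5.27 in the other Hdac4HET mice and 4.83 to 5.28 in Dble::R6/2 cortex. The part of those 2 arrays in the blood marker calls was not tested. Of 10 choroid plexus and meninges markers, 2 rose in R6/2 against WT (20%, against 28.1% of all genes), Ogn (0.47 ± 0.10, adjusted p = 0.000383) and Col1a2 (0.33 ± 0.11, adjusted p = 0.0156). None of them passed in Dble::R6/2 against Hdac4HET. The part of these cells in the rise of Lyz2, Ptprc and Cd74 was not tested.

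Of 10 astrocyte markers, 8 fell (80%, against 18.4% and 14.1% of all genes) and none rose in each transgene comparison, with Ndrg2 at -0.35 ± 0.04 (adjusted p = 2.45e-10) and -0.30 ± 0.03 (adjusted p = 3.1e-09), and of 7 cortical neuron markers, 5 fell in each (71.4%), with Rbfox3 at -0.28 ± 0.03 (adjusted p = 7.05e-11) and -0.19 ± 0.03 (adjusted p = 2.03e-07). The astrocyte means did not overlap, at 11 to 11.11 in WT and 10.70 to 10.89 in R6/2 cortex. Of 4 oligodendrocyte markers, 2 fell in R6/2 against WT (50%, against 18.4%) and 1 in Dble::R6/2 against Hdac4HET (25%, against 14.1%), with Mbp at -0.12 ± 0.03 and -0.13 ± 0.03. Of 5 endothelial markers 2 rose in R6/2 against WT (40%, against 28.1% of all genes), Flt1 (0.20 ± 0.07) and Tek (0.22 ± 0.07). None of the 5 passed in Dble::R6/2 against Hdac4HET.

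The C1q chains are assembled into 1 protein and their genes lie next to each other on mouse chromosome 4, in the order C1qb, C1qc, C1qa in RefSeq. Over the 37 arrays, each taken relative to its genotype mean, C1qb and C1qc rose and fell together (Pearson's r = 0.91, Spearman's rho = 0.92, permutation p adjusted over 3 pairs = 3e-05 for each, the smallest that 100000 permutations can give). Without the 2 arrays farthest from the median r was 0.90, and within the 4 genotypes r lay between 0.86 and 0.98. For C1qa no relation with either was found over the 37 arrays: r was 0.04 with C1qb (rho = -0.01, adjusted permutation p = 0.835) and 0.05 with C1qc (rho = 0.04, adjusted permutation p = 0.835), and -0.01 with C1qc without the 2 farthest arrays. Within the genotypes r of C1qa with C1qb lay between -0.42 (WT) and 0.42 (R6/2), and with C1qc between -0.29 (WT) and 0.42 (Dble::R6/2), so the pooled values average over both signs.

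**Figure D4:**
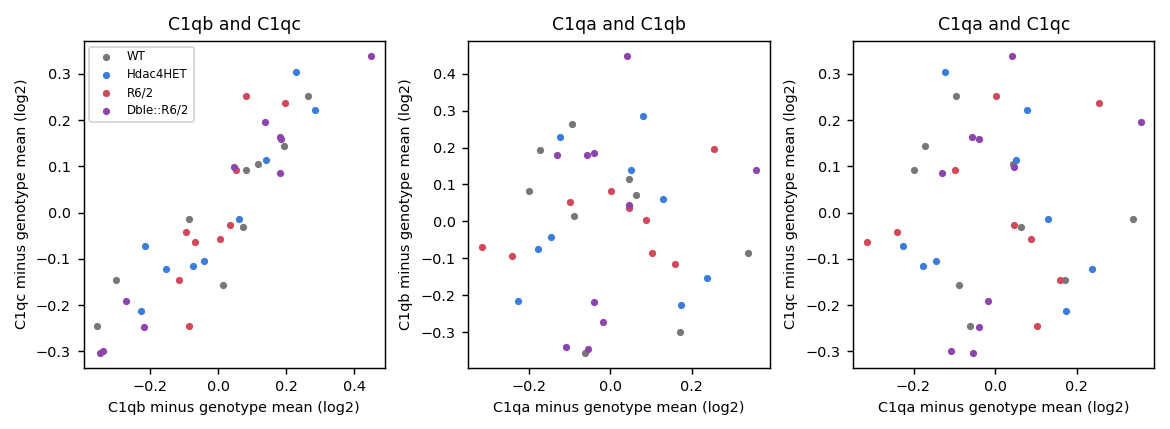
Log2 levels of C1qa, C1qb and C1qc in each of 37 mice, minus the mean of the mouse's genotype, plotted in pairs and coloured by genotype. C1qb and C1qc lie along a line (r = 0.91), and C1qa forms a cloud with C1qb (r = 0.04) and with C1qc (r = 0.05).

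The genes whose levels followed each member most closely over the mice, again relative to the genotype mean, were ranked by the size of r over all genes, as a description with n = 37 and no test. C1qa was closest to other microglial genes, Csf1r (r = 0.83), Ly86 (0.82) and Tyrobp (0.81). After each other, C1qb and C1qc were instead closest to genes of their own chromosome: 12 of the 20 nearest genes of C1qb and 14 of those of C1qc lay on chromosome 4, all within 20 Mb, where 6.03% of all genes lie. They included Miip (r = 0.72 with C1qc), Map3k6 (0.69 with C1qc, 0.65 with C1qb) and Efhd2 (0.65 with C1qb), none of which is on the lists of markers used here. C1qa had 6 such genes of 20, Laptm5 among them.

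Aif1 and Fcrls showed the same pattern on other chromosomes. Of the 20 genes nearest to Aif1, 17 lay on chromosome 17, which holds 4.62% of all genes and the MHC cluster, with Mmut (r = 0.83), Enpp5 (r = -0.83), Glo1 (0.80) and H2-Q5 (0.79) among the first 5. Of the 20 nearest to Fcrls, 15 lay on chromosome 3, which holds 5.08% of all genes, with Gon4l (-0.77) and Prcc (0.72) among the first 5. For Cx3cr1, Cd68, Csf1r, Trem2, Fcgr3, Tmem119, Irf8 and Cd14 the number was 0, and for Cd74 the nearest gene was H2-Aa (r = 0.85), on another chromosome.

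**Figure D5:**
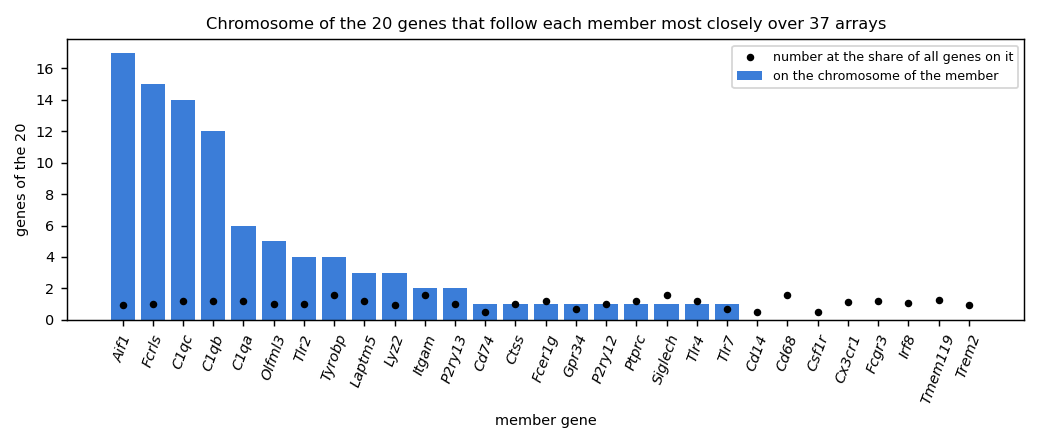
For each of the 29 genes (horizontal axis), how many of the 20 genes that followed it most closely over 37 arrays lay on its own chromosome (bars), and the number at the share of all genes on that chromosome (black points). Aif1 stands at 17, Fcrls at 15, C1qc at 14 and C1qb at 12, and 8 genes stand at 0.

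The changes of these neighbours between genotypes were compared with those of the member, counting each neighbour in the direction that its r gives. Of the 13 chromosome 4 genes near C1qc other than C1qb, 9 went the way of lower C1qc in R6/2 against WT (3 called with it, 1 against it), and 9 in Dble::R6/2 against Hdac4HET (2 called with it, 3 against it). For the 11 near C1qb the numbers were 8 in each comparison, with 3 called with it and 1 against it, and then 3 and 2. In Dble::R6/2 against R6/2, 4 of the 13 near C1qc and 1 of the 11 near C1qb went the way of the member, with 0 called. For Aif1, 15 of 17 went the way of its higher level in R6/2 against WT (5 called with it, 0 against it), and all 17 went the way of its lower level in Dble::R6/2 against R6/2 (1 called with it, 0 against it). In Dble::R6/2 against Hdac4HET the number for Aif1 was 9 of 17 (1 called with it, 2 against it). For Fcrls, 9 of 15 went its way in R6/2 against WT (6 called with it, 1 against it). The numbers for Fcrls were 12 of 15 in Dble::R6/2 against R6/2 (1 called with it, 0 against it) and 9 of 15 in Dble::R6/2 against Hdac4HET (4 and 2). In Hdac4HET against WT they were 5 of 11 for C1qb, 5 of 13 for C1qc, 5 of 17 for Aif1 and 13 of 15 for Fcrls, with 0 called. What part of the differences between genotypes comes from the chromosome around each gene was not tested.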

How the data were processed

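The authors hybridised cortex RNA of 37 mice to Affymetrix mouse genome arrays, checked quality with RACE and excluded poor chips. They deposited log2 expression values for 45037 probe sets, for which the sources used here give no summary or normalization steps, and these values were used as deposited. Gene symbols came from the platform annotation (34945 probe sets with 1 symbol, 932 with several, which were not named, and 9160 with none here) and gave 18193 genes. The number of arrays limits the precision. Nothing in the labels says which mice were littermates.

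A model of the 4 genotypes was fitted over all 37 arrays and all probe sets with limma 3.58.1 in R 4.3.3 (lmFit, eBayes with a trend), with Benjamini-Hochberg adjustment. Calls were made at an adjusted p under 0.05 at any size, and at 1.3-fold as an alternative. Each adjusted p comes from this limma model unless the methods' t-test or a permutation test (Python 3.11.15) is named. The 29 measured genes are accounted for by role. Of those called, up to 5 per role and comparison are given in full, and 2 where none was called. Of the other lists (152 of 165 genes measured, 13 lists) up to 4 called genes are named. The members and lists were chosen with earlier results of these data known. The ranking of genes by likeness and the genes named from it came after the values were seen. So did the choice to leave out Dble::R6/2 replicate 4 and the division of the Dble::R6/2 mice by C1qb and C1qc level. Alternatives were quantile normalization, the methods' t-test, a filter on dim probe sets, a fit of only the genotypes compared, labelled sex, the replicate block, array weights, other choices of probe set, and leaving out arrays. The test was checked on simulated data.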

Additional observations from a re-analysis of the deposited data

Results flagged for a closer look

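Within each genotype, the highest and lowest mouse of each of the 29 genes was compared with its neighbours. Of 116 such groups of values 6 had a mouse that stood apart, where chance alone gives about 1 in 20 groups. Of these 6, 5 were high values of Dble::R6/2 replicate 4, which stood at 8.38 for Tmem119 (next highest 8.12), 8.22 for Fcgr3 (8.11), 10.05 for C1qa (9.74), 8.91 for Laptm5 (8.74) and 7.81 for Cd74 (7.24). The mean of the 29 genes on that array was 7.91, the highest of its genotype. WT replicate 9, an array whose sex-linked genes went against its label, was low for Tlr4, at 3.52 (next lowest 3.80). Without Dble::R6/2 replicate 4 the calls of Cd74 and Olfml3 in Dble::R6/2 against Hdac4HET were lost.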

How the results depend on the processing

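Over 13 alternatives, the 21 results for single genes kept their direction and side of the threshold 225 times and their direction alone 43 times, and none changed sign. At 1.3-fold 1 gene was higher and 1 lower in R6/2 against WT, where 683 and 600 of all 18193 genes were. The numbers were 0 and 0 in Dble::R6/2 against Hdac4HET, where 473 and 743 of all genes were. In the latter comparison the genes higher numbered 1 with only the genotypes compared, 0 with the methods' t-test, 1 without the arrays of doubtful sex, 0 without the arrays with bulb markers and 0 without Dble::R6/2 replicate 4. The genes lower there numbered 2 without the arrays with bulb markers, where 2 Hdac4HET arrays remain. Without Dble::R6/2 replicate 4, r was -0.01 for C1qa with C1qb and -0.02 for C1qa with C1qc. The causes were not tested. With the replicate number of the labels as a block, 1 gene was higher in Dble::R6/2 against Hdac4HET. That fit lost Csf1r and Cd74 in R6/2 against WT and Cd74 and Siglech in Dble::R6/2 against Hdac4HET. The deviations of same-numbered mice from their genotype means correlated at -0.27 to 0.22. By pair of genotypes the median lay between -0.01 and 0.11, against -0.01 to 0.01 for mice of other numbers. The highest, 0.11 against 0, was for Hdac4HET with R6/2. Whether the numbers mark a shared litter or batch cannot be told from these values.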
